A study of Bos taurus with 64 samples.

Results

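miR-455 is a microRNA whose hairpin yields 2 mature arms, bta-miR-455-3p and bta-miR-455-5p, named here without the cattle prefix. These 2 of the 1030 names in the deposited table of muscle miRNA counts are described below, and both were among the 318 miRNAs abundant enough to be tested. They were chosen by measured values, namely their lean toward low residual feed intake (RFI) in Holstein-Friesian steers on grass. Values from that contrast are therefore given as a description, without a test. RFI is the feed an animal eats beyond, or short of, what its size and growth predict, and a low-RFI steer is the more feed-efficient.

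Both arms are cut from the same hairpin, which in RefSeq's annotation of the cattle assembly ARS-UCD2.0 lies within COL27A1, the gene of a fibrillar collagen of cartilage. A mature arm loaded into an Argonaute protein pairs through its seed with target mRNAs and lowers their output, and the arms of a hairpin have different seeds. miR-455 is known as a promoter of brown fat differentiation, in which fat cells burn lipid for heat, and as a regulator of cartilage cells together with miR-140.

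The 64 libraries came from skeletal muscle of 59 steers, either Charolais (bred for beef) or Holstein-Friesian (bred for milk). They form 8 groups of 8: low- or high-RFI steers of either breed that ate zero-grazed grass (the earlier phase) or a high-concentrate diet (the later phase), each phase lasting 70 days with 14 days of acclimatisation between them. Diet, phase order and age cannot be told apart. The labels give no genotype beyond breed and no ages, and 5 steers gave a library in each phase, 1 of them classed high-RFI on grass and low-RFI on concentrate. All libraries are bulk muscle, so more cells of a type and more RNA per cell cannot be told apart.

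A library held between 4795936 and 12245099 counts (median 8143016), and TMM scaling factors, which correct for a few miRNAs taking much of a library, from 0.511 to 2.43. Levels are given as CPM (counts scaled to a common library size) after this scaling. The myofibre miRNAs miR-486, miR-133a and miR-133b averaged 104818, 74311 and 8983 CPM. The liver marker miR-122 had 22 reads in all, from 13 libraries.

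Both arms were scarce and detected in every library. miR-455-3p averaged 4.40 CPM, rank 210 of 318, between miR-505 (4.50) and miR-331-5p (4.24). miR-455-5p averaged 2.25 CPM, rank 247, between miR-767 (2.28) and miR-141 (2.20). The next neighbours of miR-455-3p were miR-190b (4.79), miR-7180 (4.55), miR-1306 (4.23) and miR-2285t (4.12), and those of miR-455-5p were miR-369-5p (2.45), miR-655 (2.30), miR-132 (2.18) and miR-154b (2.04). These levels rested on few reads: counts ran from 13 to 124 per library for miR-455-3p (median 30) and from 3 to 77 for miR-455-5p (median 16). At the mean count, counting error alone gave a coefficient of variation of 15.7% for miR-455-3p and 22.1% for miR-455-5p, beside biological coefficients of 27.9% and 26.5% estimated by edgeR. Reads without molecular identifiers can vary by more than counting predicts.

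In Holstein-Friesian steers on grass, the contrast by which the arms were selected, miR-455-3p was 1.68-fold higher in low-RFI steers. In the 8 low-RFI libraries it stood at 6.44, 10.9, 3.92, 8.16, 6.63, 3.67, 3.83 and 3.94 CPM (replicates 1 to 8), and in the 8 high-RFI libraries at 3.79, 4.69, 3.36, 3.11, 4.41, 2.68, 3.64 and 3.11 CPM. The low-RFI steers fell into a high set and a low set: replicates 1, 2, 4 and 5 were above every high-RFI library, and the other 4 lay inside the high-RFI range. All 8 low-RFI libraries were above the high-RFI median of 3.5 CPM. The means were 5.93 ± 2.61 and 3.60 ± 0.685 CPM (SD, n = 8 each), and the log2 difference was 0.75 ± 0.22 (SE).

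miR-455-5p leaned the same way, 1.48-fold. Its low-RFI libraries held 2.76, 5.57, 2.51, 3.94, 2.69, 2.38, 1.22 and 2.98 CPM and its high-RFI libraries 2.58, 3.18, 1.84, 1.31, 2.13, 2.32, 1.86 and 1.42 CPM. The groups overlapped more than for the 3p arm, with 7 of 8 low-RFI libraries above the high-RFI median but only 2, replicates 2 and 4, above all high-RFI libraries. The log2 difference was 0.57 ± 0.24, from 3.0 ± 1.28 and 2.08 ± 0.618 CPM. Of all 318 miRNAs, 0% were called by edgeR in this contrast (17 at an unadjusted p under 0.05, and 0 called by DESeq2 or limma-voom). Without low-RFI replicate 2, the highest library for both arms, the log2 difference was 0.57 for miR-455-3p and 0.38 for miR-455-5p.

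The scaling moves single libraries of this contrast. High-RFI replicate 1 carried 113 reads of miR-455-3p, or 9.23 CPM before TMM scaling (95% Wilson interval 7.68 to 11.1), just below the 9.51 to 13 CPM before scaling of the 4 high low-RFI libraries. miR-10b, the dominant muscle miRNA, took 19.3% of that library, the lowest share in the group, against a group median of 54.6%, and its TMM factor of 2.43 brought miR-455-3p to 3.79 CPM. With total counts in place of TMM factors the log2 difference was 0.69 for miR-455-3p and 0.44 for miR-455-5p.

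**Figure D1:**
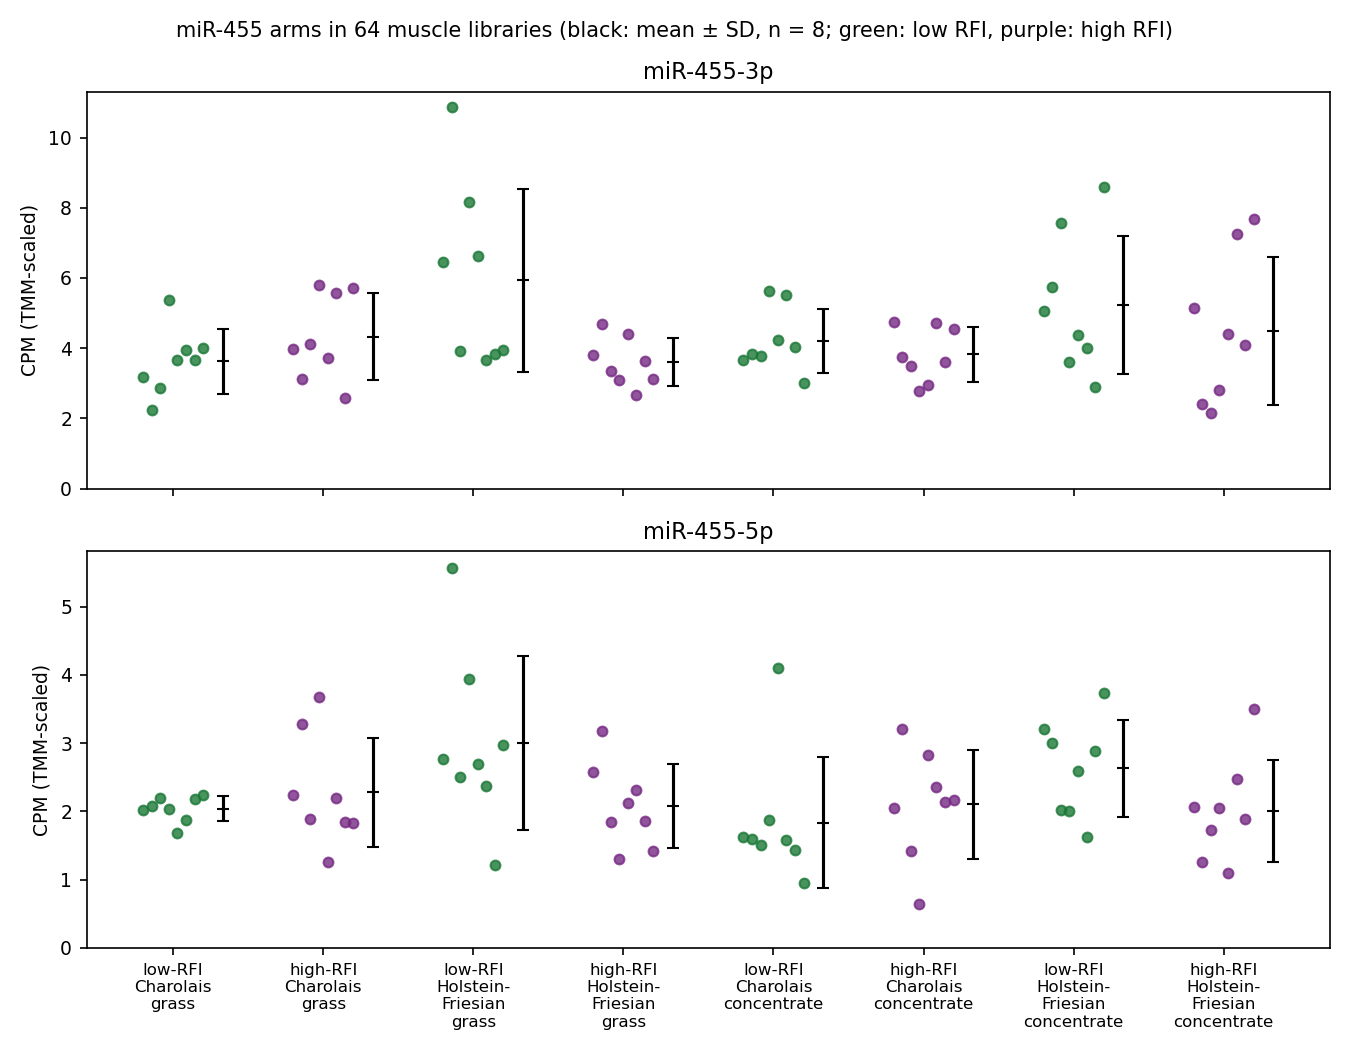
CPM of miR-455-3p (upper panel) and miR-455-5p (lower panel) in each of the 64 libraries by group, with the mean ± SD beside each group of 8. In low-RFI Holstein-Friesian steers on grass, 4 libraries of miR-455-3p lie between 6.44 and 10.9 CPM and the other 4 between 3.67 and 3.94 CPM, and every group overlaps every other.

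Of 8 tested smooth muscle and fibroblast miRNAs, the 3 most abundant had positive differences in the same steers and the others were near 0 or negative. miR-21-5p, raised in activated fibroblasts and leukocytes, was 0.87 ± 0.23 higher on the log2 scale in low-RFI Holstein-Friesian steers on grass, miR-143, a smooth muscle miRNA, 0.61 ± 0.22, and its cluster partner miR-145 0.56 ± 0.35. The summed level of the 8 tested smooth muscle and fibroblast miRNAs ran from 25821 to 117171 CPM in low-RFI libraries (median 42238) and from 16613 to 55024 CPM in high-RFI libraries (median 31404), with none of the 8 at 0 in either group. miR-143 made up most of the sum in every one of these libraries, from 13349 of 16613 CPM in the lowest to 110789 of 117171 CPM in the highest. The sum therefore mainly shows miR-143, not the list. The other 5 ran from -0.18 to 0.13. The median log2 difference over the 8 was 0.10, beside 0.05 over all 318, and 0 of the 318 were called. Low-RFI replicate 2, highest for both arms, was also highest in miR-143 (110789 CPM), whereas low-RFI replicate 3, with 6995 CPM of miR-21-5p, held only 3.92 CPM of miR-455-3p. Without the library highest in miR-143 in each of the low- and high-RFI groups (replicate 2 in both), the log2 difference was 0.62 for miR-455-3p and 0.48 for miR-455-5p. High-RFI replicate 2 was also the highest of its group for both arms. The part of these cells in the arms' values was not tested.

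**Figure D2:**
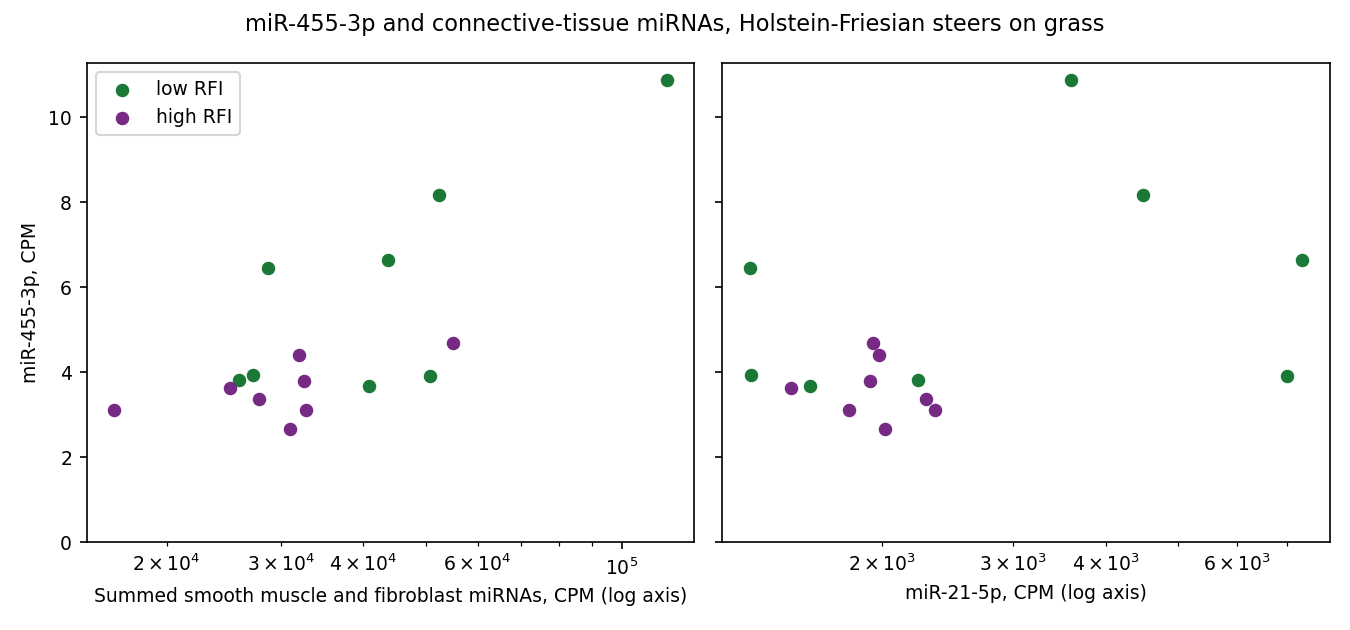
miR-455-3p (CPM, vertical axis from 0) against the summed smooth muscle and fibroblast miRNAs (left, CPM, log axis) and miR-21-5p (right, CPM, log axis) in the 16 Holstein-Friesian grass libraries, green for low and purple for high RFI. The library with the highest sum, 117171 CPM, has the highest miR-455-3p, 10.9 CPM, and a low-RFI library with 6995 CPM of miR-21-5p has 3.92 CPM. miR-143 makes up most of the sum in every library.

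In the other libraries neither arm differed with RFI beyond error. These libraries were not used in choosing the arms, but 1 high-RFI Holstein-Friesian steer gave replicate 1 both on grass and on concentrate. Averaged over Charolais on both diets and Holstein-Friesian on concentrate, the log2 difference of low minus high RFI was 0.03 ± 0.13 for miR-455-3p and 0.02 ± 0.15 for miR-455-5p (edgeR quasi-likelihood test, Benjamini-Hochberg adjusted p = 0.992 for each). The 95% intervals were 0.850- to 1.23-fold and 0.830- to 1.24-fold. With concentrate libraries left out for steers sampled in both phases, that steer included, the differences were 0.02 ± 0.15 and 0.07 ± 0.16 (edgeR adjusted p = 0.994 for each). Of the 318 miRNAs 0% were called in that average (6 at an unadjusted p under 0.05).

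In Charolais steers on grass the fitted differences had the opposite sign, within error. miR-455-3p ran from 2.23 to 5.38 CPM (median 3.67) in low-RFI and from 2.57 to 5.80 CPM (median 4.04) in high-RFI steers, a log2 difference of -0.26 ± 0.23 (edgeR adjusted p = 0.861). miR-455-5p ran from 1.68 to 2.24 CPM (median 2.06) and from 1.26 to 3.67 CPM (median 2.05), a log2 difference of -0.16 ± 0.25 (edgeR adjusted p = 0.922). The low-RFI libraries held the 5p arm in the narrowest band of any group, 2.04 ± 0.186 CPM (SD, n = 8). They had 9 to 33 reads of it (median 15), and the band is narrower than counting error alone (22.1% at the arm's mean count). It is therefore not read as a trait of the group. The groups overlapped for both arms, and 0% of miRNAs were called (15 at an unadjusted p under 0.05).

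In Charolais steers on concentrate the arms pointed opposite ways, each within error. miR-455-3p ran from 3.01 to 5.64 CPM (median 3.93) in low-RFI and from 2.79 to 4.74 CPM (median 3.67) in high-RFI steers, a log2 difference of 0.14 ± 0.24 (edgeR adjusted p = 0.965). miR-455-5p ran from 0.958 to 4.11 CPM (median 1.59) and from 0.644 to 3.21 CPM (median 2.15), a log2 difference of -0.17 ± 0.26 (edgeR adjusted p = 0.958). The highest 5p value, 4.11 CPM in low-RFI replicate 5, stood far above the other 7 libraries of its group, and without it the log2 difference was -0.46. Again 0% of miRNAs were called (10 at an unadjusted p under 0.05).

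In Holstein-Friesian steers on concentrate both differences were positive without passing the test. miR-455-3p ran from 2.88 to 8.58 CPM (median 4.72) in low-RFI and from 2.17 to 7.66 CPM (median 4.24) in high-RFI steers, a log2 difference of 0.22 ± 0.23 (edgeR adjusted p = 0.758). miR-455-5p ran from 1.63 to 3.74 CPM (median 2.74) and from 1.10 to 3.5 CPM (median 1.97), a log2 difference of 0.39 ± 0.25 (edgeR adjusted p = 0.618), with 7 of 8 low-RFI libraries above the high-RFI median. The 95% intervals were 0.850- to 1.59-fold for the 3p arm and 0.933- to 1.85-fold for the 5p arm. Leaving out 1 library moved the 3p difference to between 0.061 (without low-RFI replicate 8) and 0.37 (without high-RFI replicate 8). Of all miRNAs 0% were called (34 at an unadjusted p under 0.05). With total counts in place of TMM factors, the miR-455-3p difference turned to -0.08, while the median of all miRNAs moved to -0.37.

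**Figure D3:**
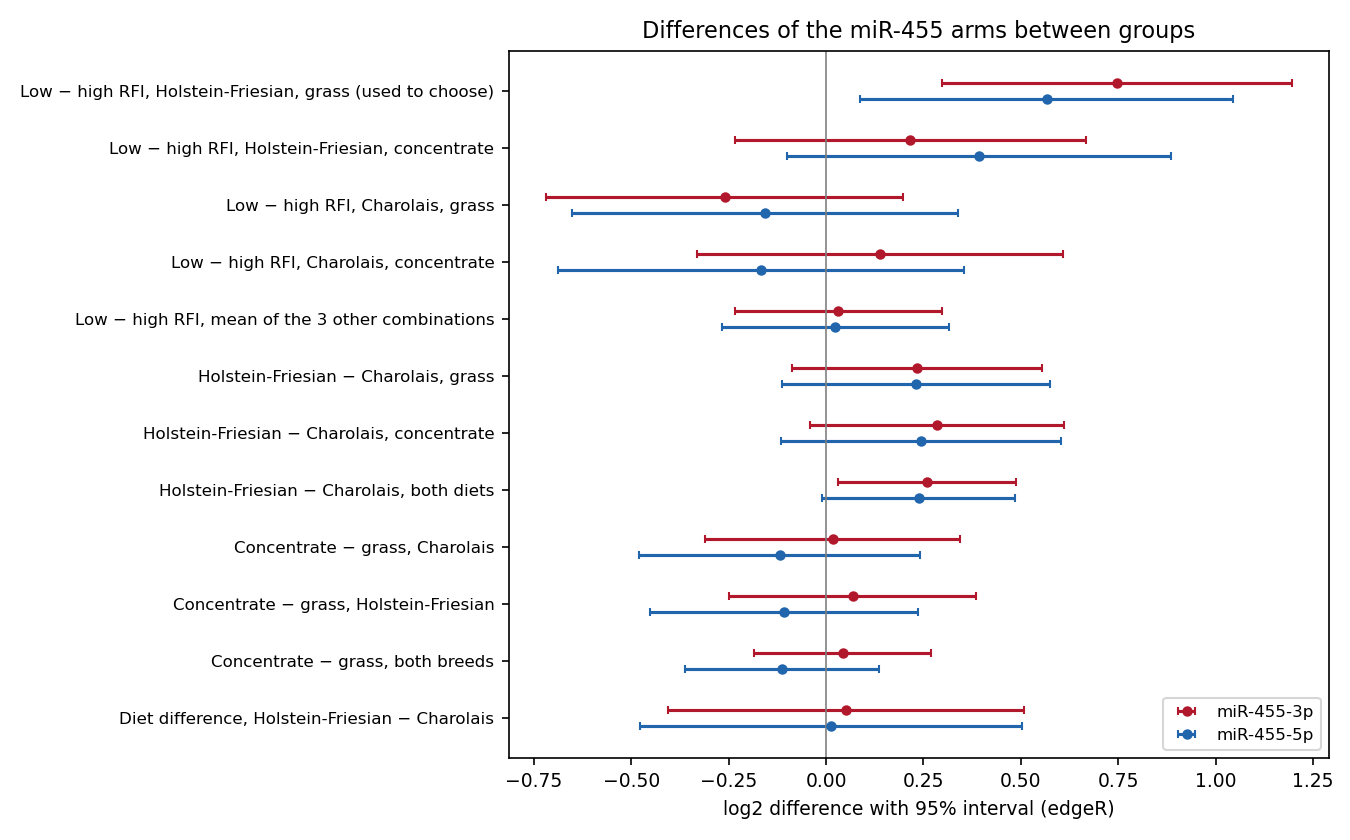
Log2 differences of miR-455-3p (red) and miR-455-5p (blue) with 95% intervals from edgeR for each comparison. The topmost, low minus high RFI in Holstein-Friesian steers on grass, chose the arms and has no test. Its intervals do not allow for that choice, so their place against 0 is not read. Among the tested comparisons, the unadjusted interval lies clear of 0 only for miR-455-3p in Holstein-Friesian minus Charolais over both diets (0.26). Its edgeR adjusted p was 0.0892.

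Between breeds the means of both arms were higher in Holstein-Friesian steers, but neither difference passed the test. Over both diets miR-455-3p stood at 4.81 ± 2.07 CPM in Holstein-Friesian and 3.99 ± 0.974 CPM in Charolais libraries (SD, n = 32 each), 1.2-fold higher with a log2 difference of 0.26 ± 0.11 (edgeR adjusted p = 0.0892). Of the 32 Holstein-Friesian libraries, 20 were above the Charolais median and 8 above every Charolais library. miR-455-5p stood at 2.43 ± 0.932 and 2.06 ± 0.726 CPM, a log2 difference of 0.24 ± 0.12 (edgeR adjusted p = 0.169). The difference had about the same size on grass (0.23 ± 0.16 and 0.23 ± 0.17, edgeR adjusted p = 0.303 and 0.351) and on concentrate (0.28 ± 0.16 and 0.24 ± 0.18, edgeR adjusted p = 0.346 and 0.476). Of the 318 miRNAs 21.7% were called over both diets, 29.9% on grass and 1.57% on concentrate. Neither arm was among the miRNAs called.

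For each arm, the breed difference over both diets stayed uncalled in 74 alternatives, leaving out each library included, and passed in 1. With total counts in place of TMM factors the differences over both diets were 0.44 and 0.43 (edgeR adjusted p = 0.0543 and 0.0688), with the median of all miRNAs at 0.12. With upper-quartile scaling miR-455-3p passed (log2 difference 0.34, edgeR adjusted p = 0.0294). Without low-RFI Charolais concentrate replicate 5, the high 5p library, miR-455-5p passed (0.31, edgeR adjusted p = 0.0424). The Holstein-Friesian grass libraries highest in miR-143, low- and high-RFI replicate 2, were also the highest of their groups for both arms. Leaving them out, and no Charolais library, could only lower the breed difference, so the fall cannot tell the part of miR-143. The grass differences were then 0.12 and 0.09, and the difference over both diets was 0.20 for miR-455-3p (edgeR adjusted p = 0.217).

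Neither arm differed with diet beyond error. Over both breeds miR-455-3p stood at 4.44 ± 1.57 CPM on concentrate and 4.37 ± 1.76 CPM on grass (SD, n = 32 each), a log2 difference of 0.04 ± 0.11 (edgeR adjusted p = 0.814). miR-455-5p stood at 2.15 ± 0.825 and 2.35 ± 0.874 CPM, a log2 difference of -0.11 ± 0.12 (edgeR adjusted p = 0.504). Of all miRNAs 34% were called for diet over both breeds, 20.8% in Charolais and 24.2% in Holstein-Friesian steers. Within Charolais the differences were 0.02 ± 0.16 and -0.12 ± 0.18 (edgeR adjusted p = 0.940 and 0.692), and within Holstein-Friesian steers 0.07 ± 0.16 and -0.11 ± 0.17 (edgeR adjusted p = 0.786 and 0.692). The diet differences did not differ between the breeds beyond error (0.05 ± 0.23 and 0.01 ± 0.24, edgeR adjusted p = 0.887 and 0.970, with 3.46% of miRNAs called). With total counts in place of TMM factors the miR-455-3p value turned to -0.22 and the miR-455-5p value moved to -0.38 ± 0.17 (edgeR adjusted p = 0.0605), with the median of all miRNAs at -0.24. In Holstein-Friesian steers the miR-455-5p value moved to -0.43 (edgeR adjusted p = 0.150).

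Across the 8 groups the order of mean levels put low-RFI Holstein-Friesian steers on grass first and those on concentrate next, for both arms. The places of the Holstein-Friesian grass groups rest on the values used to choose the arms, so they are a description only. For miR-455-3p the order was low-RFI Holstein-Friesian on grass (5.93 CPM), the same class on concentrate (5.23 ± 1.98), high-RFI Holstein-Friesian on concentrate (4.49 ± 2.10), high-RFI Charolais on grass (4.32 ± 1.24), low- and high-RFI Charolais on concentrate (4.21 ± 0.916 and 3.82 ± 0.773), low-RFI Charolais on grass (3.62 ± 0.930) and high-RFI Holstein-Friesian on grass (3.60). The means of miR-455-5p followed the order low-RFI Holstein-Friesian on grass (3.0) and on concentrate (2.63 ± 0.712), high-RFI Charolais on grass (2.28 ± 0.803) and on concentrate (2.10 ± 0.795), high-RFI Holstein-Friesian on grass (2.08), low-RFI Charolais on grass (2.04), high-RFI Holstein-Friesian on concentrate (2.01 ± 0.750) and low-RFI Charolais on concentrate (1.84 ± 0.953). Of the 7 steps between neighbours in each order, 0 exceeded the smaller of the neighbours' SDs.

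The 5 steers sampled in both phases showed no common shift. From grass to concentrate miR-455-3p went from 3.13 to 3.78, 5.38 to 5.64, 5.72 to 3.60, 3.97 to 3.74 and 3.79 to 5.16 CPM in the 5 steers. The mean log2 difference was 0.006 (SD 0.427, exact sign-flip permutation test, two-sided p = 1). miR-455-5p went from 3.28 to 1.51, 2.04 to 1.88, 1.84 to 2.13, 2.24 to 3.21 and 2.58 to 2.06 CPM, a mean of -0.165 (SD 0.620, exact sign-flip permutation p = 0.6875). With 5 pairs the smallest p this test can give is 0.063.

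The 3p arm was the more abundant in nearly every library. Summed over the 64 libraries there were 2591 reads of miR-455-3p and 1316 of miR-455-5p, a ratio of 1.97. The 3p count was higher in 62 libraries and equal in 1, and the ratio ran from 0.957 to 4.33 with a median of 2.07. Differences in how well each arm is captured in a library are not corrected for, so the ratio of the arms in the cells may differ. Group medians of the ratio ran from 1.74 in low-RFI Charolais on grass to 2.65 in low-RFI Charolais on concentrate.

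The ratio did not differ between groups beyond error in any of the 9 comparisons tested. Since it is taken within a library it does not depend on the scaling. The smallest unadjusted p, 0.147, was for diet over both breeds, with a ratio of 2.06 on concentrate and 1.82 on grass (permutation test with 100000 resamples, two-sided, adjusted p = 0.808). Between breeds the ratio was 1.92 in Holstein-Friesian and 1.96 in Charolais libraries (permutation test, adjusted p = 0.834). For low against high RFI in Charolais on concentrate it was 2.38 and 1.90 (exact permutation test, adjusted p = 0.808).

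**Figure D4:**
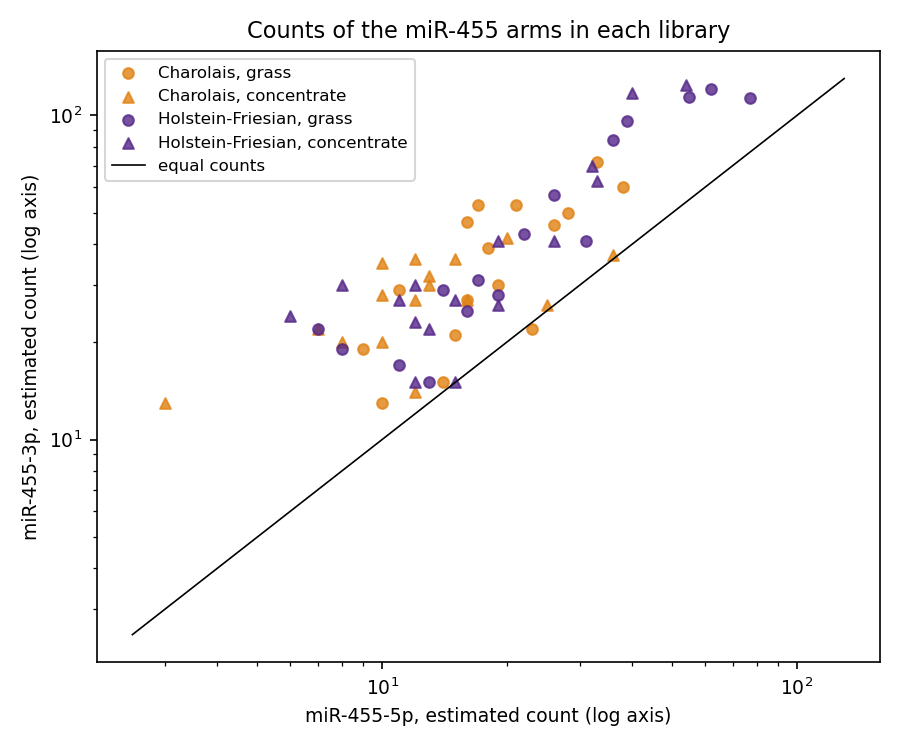
Count of miR-455-3p against miR-455-5p in each of the 64 libraries (log axes, whole reads), by breed and diet, with the line of equal counts. Of the libraries 62 lie above the line and 1 on it, and the ratio ranges from 0.957 to 4.33.

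Pooled over the groups, the arms varied together between steers of the same group. Outside Holstein-Friesian on grass, no single breed and diet passed after adjustment. Over 59 libraries, 1 for each steer, the deviations of log2 CPM from the group means had a Pearson r of 0.464 and a Spearman rho of 0.421 (permutation p = 0.00026 and 0.00108, adjusted over the 8 relations computed 0.000693 and 0.00288). Without the 2 libraries farthest from the median r was 0.366. Without the Holstein-Friesian grass libraries, whose contrast chose the arms, r was 0.363 and rho 0.335 (n = 43, permutation p = 0.0167 and 0.0289, adjusted 0.0267 and 0.0462). Within Holstein-Friesian steers on grass r was 0.726 and rho 0.718 (n = 16), given as a description. It was 0.519 in Holstein-Friesian on concentrate (n = 15, rho 0.511, permutation p = 0.0489 and 0.0545, adjusted 0.0652 and 0.0726), 0.437 in Charolais on concentrate (n = 12, rho 0.413, permutation p = 0.158 and 0.184) and 0.128 in Charolais on grass (n = 16, rho 0.0824, permutation p = 0.641 and 0.763). In Holstein-Friesian on grass r was 0.529 without the 2 farthest libraries, and in Charolais on grass 0.0662. Whether r differs between breeds or diets was not tested. The 8 relations reuse the same libraries, those of the contrast that chose the arms included. Their adjusted values are therefore not those of separate tests. Both arms come from a shared library and total, which can add to r: with total counts in place of TMM factors r was 0.723.

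Of the 8 miRNAs whose deviations followed the arms most closely, 2 are on the smooth muscle and fibroblast list, miR-143 and miR-199a-5p. As many, miR-146a and miR-146b, are on the leukocyte list. Among 172 miRNAs averaging at least 10 CPM, miR-455-3p was most alike to miR-130a (rho 0.554 over 64 libraries), miR-143 (0.515), miR-148a (0.511), miR-874 (0.468) and let-7e (0.455), where the median miRNA had 0.0354. miR-455-5p was most alike to miR-148a (0.539), the innate immune miR-146a (0.502), miR-130a (0.497), the fibroblast miR-199a-5p (0.454) and miR-146b (0.453), with a median of 0.0236. miR-130a and miR-148a are among the 5 most alike to each arm. The correlations share each library's scaling, and the arms' rho with the log2 total count was 0.237 and 0.145, with the TMM factor 0.129 and 0.121, and with the share of miR-10b -0.0922 and -0.0135.

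Group differences of these miRNAs, and of the fibroblast marker miR-21-5p, stood beside those of the arms as follows. miR-130a, which acts in fat cell differentiation, fell on concentrate over both breeds (log2 difference -0.35 ± 0.07, edgeR adjusted p = 6.4e-05), where miR-455-3p had 0.04. miR-143 and miR-21-5p rose in Holstein-Friesian over both diets (0.31 ± 0.11 and 0.32 ± 0.11, edgeR adjusted p = 0.0345 and 0.0372), where the arms had 0.26 and 0.24. For miR-21-5p this averages 0.75 ± 0.16 on grass and -0.11 ± 0.16 on concentrate (edgeR adjusted p = 8.3e-04 and 0.781), which differed (breed by diet -0.86 ± 0.23, edgeR adjusted p = 0.0177). miR-143 had 0.47 ± 0.16 and 0.15 ± 0.16 (edgeR adjusted p = 0.0161 and 0.662). In Holstein-Friesian steers on grass, low minus high RFI, miR-130a had 0.19 ± 0.14 and miR-148a -0.02 ± 0.14, given as values only.

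Other miRNAs tied to the known roles of miR-455 were examined as lists chosen with earlier results of these data known. In each of the RFI contrasts 0 of all 318 miRNAs were called, so 0 members of any list could be. Of the 17 tested miRNAs known to promote brown fat, 1 rose and 6 fell in Holstein-Friesian against Charolais on grass (41.2% called, beside 29.9% of all miRNAs). With total counts 1 was called higher and 0 lower, beside 47 and 3 of all 318. The list had a median log2 difference of -0.35 beside 0.01 over all miRNAs, or -0.13 with total counts (beside 0.20 over all). The most abundant of them were miR-26a (-0.12 ± 0.13, adjusted p = 0.555), miR-378 (-0.41 ± 0.12, adjusted p = 0.00659), which is encoded in the gene of PGC-1beta, and miR-26b (-0.09 ± 0.13, adjusted p = 0.667, all by edgeR). The arms of miR-455, which are not on the list, had 0.23 each. The member that rose was miR-129-3p (2.81 ± 0.61, adjusted p = 8.3e-04), and the other 5 that fell, miR-30c, miR-193b, miR-365-3p, miR-32 and miR-193a-5p, had values from -0.54 to -0.36, all named after their values were seen. Of the 10 tested miRNAs known to restrain brown fat, 3 rose and 1 fell (40% called; with total counts 3 higher and 0 lower): miR-155 and miR-27a-3p rose (0.62 ± 0.17 and 0.24 ± 0.08, edgeR adjusted p = 0.00398 and 0.0245, named after their values were seen), miR-27b rose (0.21 ± 0.08, edgeR adjusted p = 0.0447), miR-133a fell (-0.43 ± 0.15, edgeR adjusted p = 0.0175) and miR-133b had -0.21 ± 0.17 (edgeR adjusted p = 0.392).

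For diet over both breeds, 1 promoting member rose and 1 fell, and 2 restraining members rose and 1 fell (11.8% and 30% called, beside 34% of all miRNAs). With total counts, 0 were called higher and 5 lower in each list, beside 7 and 118 of all 318 miRNAs. Among promoting members miR-365-3p rose (0.23 ± 0.08, edgeR adjusted p = 0.0139; -0.02 with total counts) and miR-129-3p fell (-1.52 ± 0.53, edgeR adjusted p = 0.0215). Among restraining members miR-93 and its cluster partner miR-106b rose (0.57 ± 0.14 and 0.38 ± 0.14, edgeR adjusted p = 0.00165 and 0.0345), and miR-27b fell (-0.17 ± 0.06, edgeR adjusted p = 0.0194). These 4 other than miR-27b were named after their values were seen. miR-140, the cartilage miRNA, averaged 261 CPM, well above the arms, and was called in 0 comparisons. Its log2 difference was -0.03 ± 0.06 between breeds (edgeR adjusted p = 0.733) and 0.07 ± 0.06 for diet (edgeR adjusted p = 0.367). In low against high RFI in Holstein-Friesian steers on grass it had 0.13 ± 0.12.

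Of the 8 tested smooth muscle and fibroblast miRNAs 5 rose in Holstein-Friesian on grass (62.5%, beside 29.9% of all miRNAs) and 3 over both diets (37.5%, beside 21.7%), and 0 fell, and on concentrate 0 were called (miR-199a-3p, miR-199a-5p and miR-214 were the others on grass, miR-199a-5p over both diets, named after their values were seen). miR-143 rose by 0.47 ± 0.16 and miR-21-5p by 0.75 ± 0.16 on grass (edgeR adjusted p = 0.0161 and 8.3e-04). The leukocyte list had 3 of 8 higher on grass and 3 of 8 over both diets, 37.5% each time, beside 29.9% and 21.7% of all miRNAs. These were miR-146a, miR-146b and miR-155, while the median of the list was 0.32 on grass and -0.04 over both diets (miR-146a 0.95 ± 0.23 on grass, edgeR adjusted p = 0.0017). The leukocyte miRNAs miR-146a and miR-146b are also among those most alike to miR-455-5p. Of the 2 tested endothelial miRNAs only miR-126-3p was called on grass (0.34 ± 0.10, edgeR adjusted p = 0.00901), and the median of that list was 0.18. Of the 8 myofibre miRNAs 1 rose and 2 fell on grass (37.5% called, beside 29.9% of all miRNAs). miR-206 rose, there and on concentrate, and was named after its values were seen. miR-133a fell, and miR-486 fell by -0.57 ± 0.13 (edgeR adjusted p = 0.00156). With total counts 1 myofibre miRNA was called higher on grass and 1 lower, beside 47 and 3 of all 318, and miR-133a was not called lower. The smooth muscle and fibroblast list then had 5 higher and 0 lower on grass, the leukocyte list 3 and 0, and the endothelial list 1 and 0. The part of these cell types in the arms' breed values was not tested.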

How the data were processed

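The authors deposited 1 table of estimated counts, not normalized, of 1030 miRNA names in 64 libraries. The submitters' processing notes list build ARS-UCD1.2, cutadapt 2.6, FastQC 0.11.8, edgeR 3.5 and R 3.4 with no roles. RNA was purified with a Qiagen RNeasy Plus Universal kit and the libraries were prepared with Illumina's TruSeq stranded RNA kit, per the labels. Neither aligner nor counter is given in the sources used here. Of the names, 226 were at 0 throughout, 61 held fractional values and were rounded (those of miR-455 were whole), and 1 with empty cells was left out.

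Groups come from the labels. edgeR 4.0.16 in R 4.3.3 kept 318 miRNAs with filterByExpr (the others held 0.00592% of counts), scaled by TMM and fitted a robust quasi-likelihood model to 8 group means (56 residual degrees of freedom). A miRNA was called below 0.05 after Benjamini-Hochberg adjustment over the 318. The fit was tested on simulated data. A positive difference means higher in low RFI, in Holstein-Friesian or on concentrate. The ratio used counts plus 0.5 and 100000 resamples, or all for 8 against 8. Correlations used log2 CPM with a prior count of 2. Steers with libraries in both phases are known by their animal number, and the estimated correlation of libraries of an animal was 0.392. The replicates were separate steers. The members and lists were chosen with earlier results of these data known. Named miRNAs were the members, the 5 most alike to each arm, 3 neighbours in level on each side and the 3 most abundant of each list. Alternatives were scaling, filter, tool (DESeq2 1.42.0, limma-voom 3.58.1), animal as block, and leaving out each library. Chosen after seeing the data were another TMM reference library, leaving out the libraries highest in miR-143, and the arms' correlation without Holstein-Friesian grass libraries. Seeds and coordinates are not analysed here.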

Additional observations from a re-analysis of the deposited data

Results flagged for a closer look

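In 24 groups of 8 libraries (miR-455-3p, miR-455-5p and the ratio of the arms), 2 values stood far from the others of their group by Dixon's test, where chance flags about 1 in 20, and both came from low-RFI Charolais concentrate replicate 5. There miR-455-5p was at 4.11 CPM, and in the other 7 libraries between 0.958 and 1.88 CPM. The log2 ratio of miR-455-3p to miR-455-5p was 0.039 in that library and between 1.14 and 1.76 in the others. The ratio holds the same 5p count, so the 2 flags are not separate findings.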

How the results depend on the processing

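Several differences of the arms changed sign with the scaling. With total-count scaling miR-455-3p turned to -0.082 for RFI in Holstein-Friesian on concentrate, -0.075 for RFI over the 3 other combinations, -0.19 for diet in Charolais, -0.25 for diet in Holstein-Friesian, -0.22 for diet over both and -0.055 for breed by diet, and miR-455-5p to -0.081 for RFI over the 3 combinations and -0.10 for breed by diet. With upper-quartile scaling miR-455-3p turned to -0.030 (RFI in Charolais on concentrate), -0.036 (diet in Holstein-Friesian), -0.0065 (diet over both) and -0.060 (breed by diet), miR-455-5p to -0.085 (breed by diet), and miR-455-3p passed the threshold between breeds (0.34). For breed by diet the arms turned to -0.033 and -0.053 with DESeq2 size factors, -0.030 and -0.058 with DESeq2, and -0.028 and -0.045 with another TMM reference library, and miR-455-3p to -0.016 with limma-voom. Without a filter miR-455-3p had -0.0021 for diet in Charolais and -0.00027 over both, and miR-455-5p -0.026 for breed by diet. With the repeated steers' concentrate libraries left out miR-455-3p had -0.0034 for diet in Charolais. Without the Holstein-Friesian grass libraries highest in miR-143, also the highest of their groups for miR-455-5p, that arm had 0.034 for diet in Holstein-Friesian. None of these sign changes passed a threshold, and the cause was not tested. The breed differences of both arms on grass, on concentrate and over both, and RFI in Charolais on grass, kept their sign in these settings and in leaving out each library. The contrast that chose the arms gave 0.62 to 0.77 (miR-455-3p) and 0.44 to 0.61 (miR-455-5p) over 11 settings, a description only.

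With the animal as a fixed block miR-455-3p for RFI over the 3 combinations was -0.0025, and with the animal as a random block 3 miRNAs were called between breeds on concentrate. The block changed no call of either arm.

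Leaving out each library in turn gave miR-455-3p -0.020 to 0.083 for RFI over the 3 combinations, -0.023 to 0.063 for diet in Charolais, -0.0099 to 0.16 for diet in Holstein-Friesian and -0.027 to 0.14 for breed by diet. It gave miR-455-5p -0.076 to 0.076 for RFI over the 3 combinations, 0.19 to 0.31 between breeds and -0.067 to 0.16 for breed by diet. The log2 arm ratio ran from -0.026 to 0.086 between breeds on grass and from -0.059 to 0.0056 over both diets.

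Calls over all miRNAs became 50 (breed on grass), 2 (breed on concentrate), 40 (breed over both), 42 (diet in Charolais) and 1 (breed by diet) with total-count scaling, from 95, 5, 69, 66 and 11. They became 5 for RFI in Holstein-Friesian on concentrate with upper-quartile scaling and 2 without the repeated steers' concentrate libraries, from 0, and for breed on concentrate 3 with limma-voom and 2 without those libraries. With total counts the split of higher and lower calls was 47 and 3 for breed on grass (against 47 and 48), 37 and 3 for breed over both (35 and 34), 2 and 40 for diet in Charolais (30 and 36), 6 and 88 in Holstein-Friesian (34 and 43) and 7 and 118 over both (57 and 51). Depth limits the arms' precision: at the mean count the counting variation was 15.7% and 22.1%, beside a biological variation of 27.9% and 26.5%.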
